A study of Mus musculus with 13 samples.

Results

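The constitutive proteasome genes were examined for summits of BLIMP1 binding in 6 mouse cell types. The members were the protein-coding genes whose symbol begins with Psma to Psmg and a number, without the interferon-inducible Psmb8, Psmb9, Psmb10, Psme1 and Psme2. Of 21887 protein-coding genes on chromosomes 1 to 19, X and Y, 46 met this rule, and the remaining 21841 served as the comparison. The set was classed by symbol. It held 16 core subunit genes (Psma and Psmb) and 20 genes with symbols of the regulatory particle (Psmc and Psmd), which include base-assembly chaperone genes such as Psmd10. There were 4 genes with symbols of activators or the inhibitor (Psme and Psmf) and 4 Psmg assembly chaperone genes. Another 2 genes were named after proteins that bind a proteasome subunit or activator (Psmc3ip and Psme3ip1).

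BLIMP1, the product of Prdm1, binds DNA through zinc fingers and acts mainly as a repressor in germ cells, gut, retina and plasma cells. ChIP-seq used a rabbit polyclonal antibody to GFP. All cells were C57BL/6 and homozygous for a knock-in that fuses EGFP to the N-terminal end of BLIMP1, and no library from untagged cells was analysed here. Day 2 PGC-like cells (d2 PGCLC, sorted for KIT) were grown from knock-in embryonic stem cells by way of epiblast-like cells with LIF and BMP4. Day 6 cells (d6 PGCLC, sorted for SSEA1 and integrin beta-3) were grown in LIF, BMP4, BMP8a, SCF and EGF. Primordial germ cells of E12.5 embryos (E12.5 PGC, sorted for SSEA1) came from gonads of embryos made by sperm injection, with 1 male and 1 female library. Embryonic intestinal epithelium was taken at E16.5 and sorted for GFP and EPCAM, and photoreceptor precursors were GFP-positive retinal cells of postnatal day 4. Plasmablasts were B cells stimulated with IL-4 and LPS for 3 days and sorted for GFP and CD138. The 5 cell types other than E12.5 PGC had 2 replicates each, and nothing in the labels says whether these came from separate cultures or animals. Summit lists carry no expression values, so the cell type labels could not be set against marker expression.

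The proteasome degrades proteins that carry ubiquitin chains. Its core is a barrel of alpha rings, which gate the entry, and beta rings, which hold the proteolytic sites. The regulatory particle caps the barrel with a ring of ATPases that unfold substrates and a lid that binds and removes ubiquitin. Cells need the complex at all times, plasmablasts meet a high load of secretory protein, and interferon exchanges the catalytic beta subunits for inducible ones.

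The promoter windows of the most widely bound members are shown first, because summits lay inside or near them, together with that of Psmf1. Psmf1 had no summit within 1 kb of a gene end, but its listed start lies inside the gene. Both photoreceptor precursor and both plasmablast libraries had a summit inside the window printed, so it is not an unbound promoter. They are RefSeq windows of GRCm38.p6, the assembly of mm10, from 250 bases before to 50 after a transcription start, written 5′ to 3′ on the gene's strand. Capitals mark letters that match, on either strand, the BLIMP1 core AGTGAAAG, its longer form, or the GAAA pair, which is GAAA, any 2 bases and GAAA again. BLIMP1 and interferon regulatory factors are known to bind motifs of this kind. Psmb1, the other widely bound member, is named only.
Psmg4, chr13:34162714-34163013, plus strand: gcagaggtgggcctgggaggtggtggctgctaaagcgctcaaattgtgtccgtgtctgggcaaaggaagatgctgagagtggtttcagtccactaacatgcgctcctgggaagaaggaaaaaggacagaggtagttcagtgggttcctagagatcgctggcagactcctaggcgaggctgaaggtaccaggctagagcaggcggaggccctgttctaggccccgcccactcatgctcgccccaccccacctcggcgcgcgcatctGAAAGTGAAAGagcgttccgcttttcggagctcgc
Psmb3, chr11:97703184-97703483, plus strand: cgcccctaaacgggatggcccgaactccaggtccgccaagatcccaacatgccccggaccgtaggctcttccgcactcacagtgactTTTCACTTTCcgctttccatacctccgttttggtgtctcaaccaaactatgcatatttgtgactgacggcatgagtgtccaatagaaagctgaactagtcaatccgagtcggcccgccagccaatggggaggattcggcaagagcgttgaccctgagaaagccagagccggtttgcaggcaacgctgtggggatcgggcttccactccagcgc
Psma4, chr9:54950609-54950908, plus strand: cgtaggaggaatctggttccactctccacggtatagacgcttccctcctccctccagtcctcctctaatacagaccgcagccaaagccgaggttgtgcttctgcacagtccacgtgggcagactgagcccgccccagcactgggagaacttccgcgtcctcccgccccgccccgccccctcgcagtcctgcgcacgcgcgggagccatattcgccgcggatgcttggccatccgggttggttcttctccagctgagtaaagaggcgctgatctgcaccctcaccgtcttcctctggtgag
Psma5, chr3:108256676-108256975, plus strand: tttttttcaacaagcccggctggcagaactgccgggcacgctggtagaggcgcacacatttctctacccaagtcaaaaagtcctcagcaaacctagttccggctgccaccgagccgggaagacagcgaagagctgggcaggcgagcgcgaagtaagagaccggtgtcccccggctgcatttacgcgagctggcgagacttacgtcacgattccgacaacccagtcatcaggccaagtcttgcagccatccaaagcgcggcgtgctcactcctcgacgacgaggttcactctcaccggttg
Psmd12, chr11:107479278-107479577, plus strand: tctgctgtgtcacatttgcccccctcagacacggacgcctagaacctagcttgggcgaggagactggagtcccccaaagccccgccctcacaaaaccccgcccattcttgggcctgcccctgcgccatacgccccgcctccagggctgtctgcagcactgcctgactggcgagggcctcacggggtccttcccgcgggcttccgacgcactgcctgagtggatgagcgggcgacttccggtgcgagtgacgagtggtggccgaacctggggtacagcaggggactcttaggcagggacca
Psmd6, chr14:14120896-14121195, minus strand: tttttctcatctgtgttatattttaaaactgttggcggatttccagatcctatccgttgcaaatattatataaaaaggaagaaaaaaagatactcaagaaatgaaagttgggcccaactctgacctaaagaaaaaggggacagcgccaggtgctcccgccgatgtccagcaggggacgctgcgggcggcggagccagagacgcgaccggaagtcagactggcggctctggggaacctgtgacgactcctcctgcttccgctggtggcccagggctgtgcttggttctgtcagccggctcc
Psmf1, chr2:151741261-151741560, minus strand: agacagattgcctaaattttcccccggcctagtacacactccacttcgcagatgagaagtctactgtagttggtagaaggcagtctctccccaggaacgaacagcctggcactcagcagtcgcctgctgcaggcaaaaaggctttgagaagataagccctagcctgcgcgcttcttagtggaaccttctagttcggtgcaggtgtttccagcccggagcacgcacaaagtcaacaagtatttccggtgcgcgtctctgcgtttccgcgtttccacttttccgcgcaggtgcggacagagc

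The capitals of Psmg4 spell the longer form of the BLIMP1 motif and lay 15 to 25 bases after the transcription start (chromosome 13, 34162979 to 34162989). Those of Psmb3 are a GAAA pair on the opposite strand, at positions -163 to -154 relative to the start (chromosome 11, 97703271 to 97703280). The other 5 printed windows held none of the 3 motifs. Most nearest summits of Psma5, Psmd12 and Psmd6 lay outside their windows, up to 796, 718 and 897 bp after the start. Several of Psma4 lay just before its window. Sequence outside the windows was not searched, so whether those summits lie at a motif was not tested.

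Each library's list gives 1 position per called peak, the summit, with no height or score. The lists held 7998 (intestinal epithelium replicate 1) to 76185 summits (d6 PGCLC replicate 1), with 15411 in d6 PGCLC replicate 2 and 40750 and 45122 in the plasmablast replicates. The files hold no read depth, and whether longer lists come from deeper libraries was not tested. Cell numbers, in units of 1e5, were 3.0 and 30 in the d2 PGCLC replicates and 3.0 and 10 in d6 PGCLC. E12.5 PGC had 3.3 (male) and 3.6 (female), and intestinal epithelium 10 and 8.8. Photoreceptor precursors had 8.8 and 9.2, and plasmablasts 10 and 11. Cell number thus differed between replicates and between cell types, and its part in the list lengths was not tested. Bound here means a summit within 1 kb of either gene end in each of the 2 libraries of a cell type. Each count of bound members therefore stands beside the share of all other protein-coding genes bound in the same cell type.

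BLIMP1 summits lay at most constitutive proteasome genes in plasmablasts and at a minority of them in the other cell types. In d2 PGCLC the bound members numbered 8 of 46 (17.4%), beside 8.39% of the other genes. The counts were 9 in d6 PGCLC (19.6%, beside 9.7%), 9 in E12.5 PGC (19.6%, beside 5.76%) and 8 in intestinal epithelium (17.4%, beside 7.27%). Photoreceptor precursors had 13 bound members (28.3%, beside 9.64%) and plasmablasts 37 (80.4%, beside 39.6%). The members' share was thus 2.02 to 3.40 times the background, lowest in d6 PGCLC and highest in E12.5 PGC, and 1 gene is 2.17% of the set. These are descriptions of these libraries, and no test was made over the set.

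**Figure D1:**
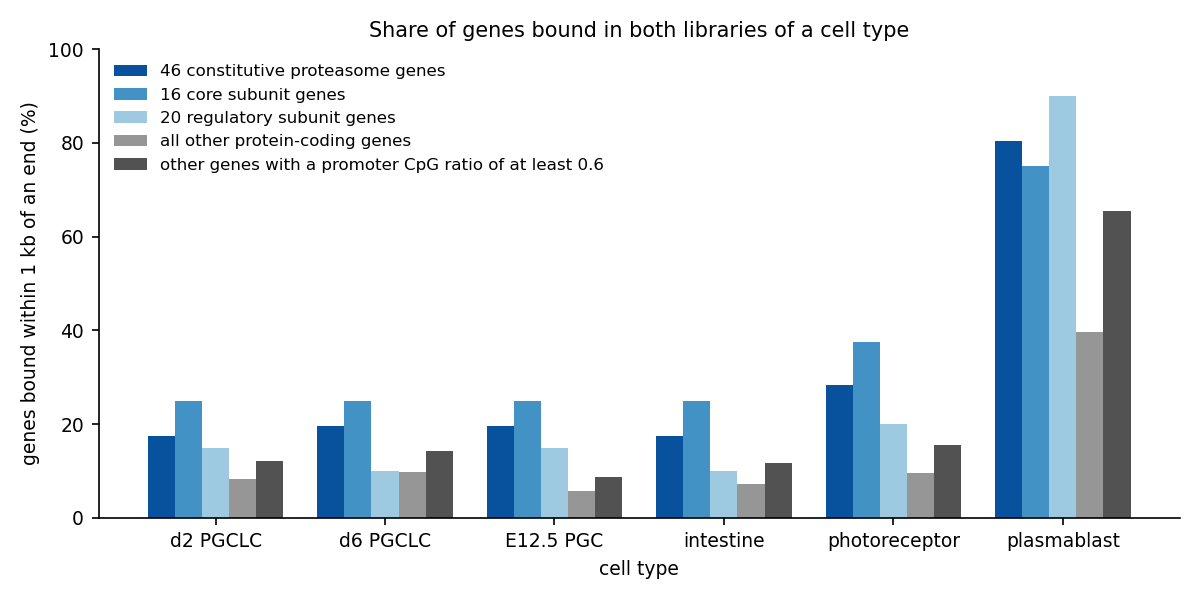
Percent of genes (y axis) bound within 1 kb of an end in both libraries of each cell type (x axis). Bars show all members, the core and the regulatory genes as classed by symbol, all other protein-coding genes, and those of them with a CpG-rich promoter. The members' bars reach 80.4% in plasmablasts and 17.4% to 28.3% in the other cell types, above the bars of all other genes in each.

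Every library had a larger share of members than of other genes with a summit. In d2 PGCLC 9 and 14 members had a summit in replicates 1 and 2 (19.6% and 30.4%), beside 9.56% and 17.1% of the other genes. In d6 PGCLC the replicates differed widely, with 25 and 9 members (54.3% and 19.6%, beside 35.9% and 10.4%). In E12.5 PGC 9 members had a summit in the male and 14 in the female library (beside 7.87% and 11.3%). The 9 members of d6 PGCLC replicate 2 and the 9 of the male library are the bound members of those cell types, so the shorter list set each count. The intestinal replicates had 8 and 19 members (beside 9.60% and 16.8%), the photoreceptor precursor replicates 16 and 18 (beside 12.2% and 14.5%), and the plasmablast replicates 38 and 40 (beside 42.6% and 45.4%). Intestinal epithelium thus differed between its replicates by more than photoreceptor precursors or plasmablasts did. Within 0.5 kb of an end, 5, 6, 5 and 6 members were bound in d2 PGCLC, d6 PGCLC, E12.5 PGC and intestinal epithelium, beside 5.29%, 5.89%, 3.8% and 5.05% of the other genes. In the same window 12 were bound in photoreceptor precursors (beside 7.24%) and 33 in plasmablasts (beside 31.8%).

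**Figure D2:**
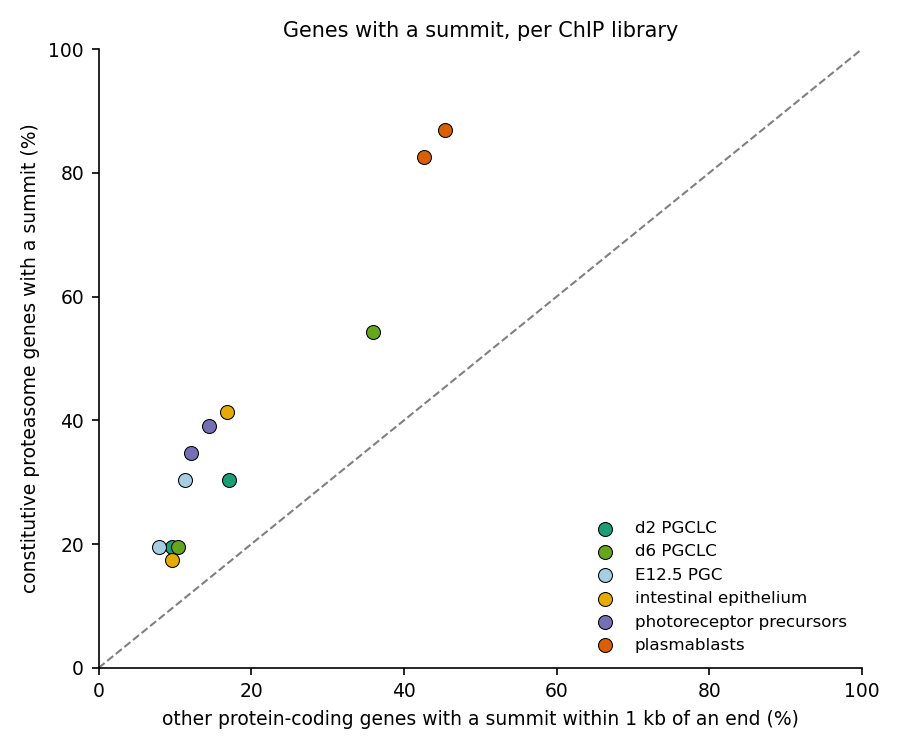
Percent of the 46 members with a summit within 1 kb of an end (y axis) against the percent of other protein-coding genes (x axis), 1 point per library, coloured by cell type. All 12 points lie above the dashed line of equal shares, from 17.4% of members in intestinal epithelium replicate 1 to 87.0% in plasmablast replicate 2.

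Members bound in plasmablasts alone were as many as members bound in at least 1 other cell type. Of the 46 members 19 (41.3%) were bound in plasmablasts and in no other cell type, beside 25.7% of the other genes. Another 19 were bound in at least 1 of the other 5 cell types (beside 18.6%), 11 of them in at least 1 germ-lineage type (beside 12.4%). In 4 or more cell types 7 members were bound (15.2%, beside 5.64%), and in all 6 cell types 4 members, Psma4, Psmb1, Psmb3 and Psmg4 (8.70%, beside 2.26%). The remaining 8 members were bound in no cell type (17.4%), beside 55.7% of the other genes. These counts use gene ends. At listed starts Psma3, counted above in plasmablasts alone, and Psmc2 were each bound in 4 cell types. Psmf1 and Psma6, counted above in no cell type, were bound at starts in 2 and 1.

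**Figure D3:**
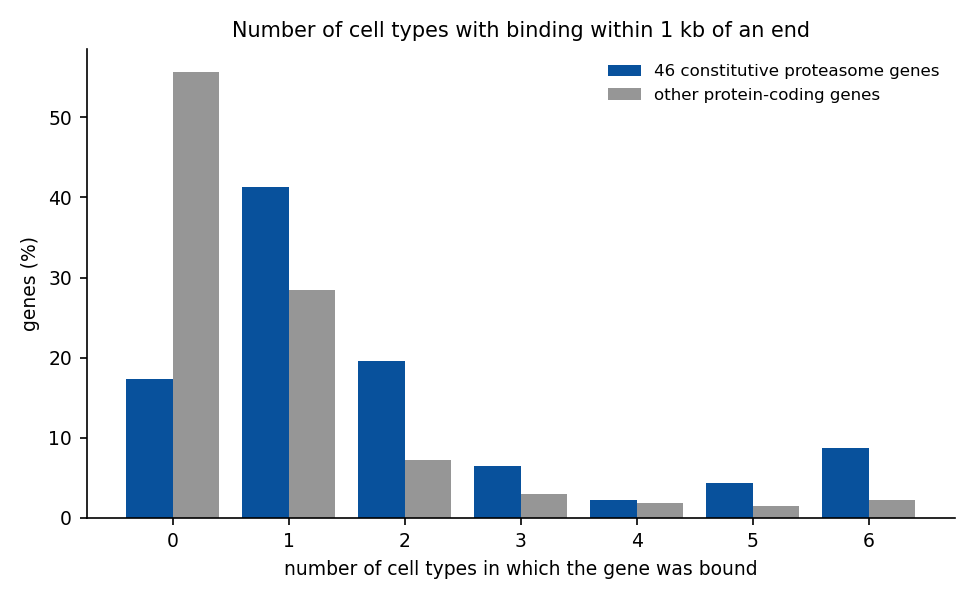
Percent of genes (y axis) by the number of cell types in which they were bound within 1 kb of an end (x axis), for the 46 members and the 21841 other protein-coding genes. Members peak at 1 cell type (41.3%), whereas most other genes, 55.7%, were bound in none.

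Within 1 kb of an end a larger share of core than of regulatory genes was bound in the 5 cell types other than plasmablasts, and a smaller share in plasmablasts, but the order in E12.5 PGC turned under 2 other rules. Of the 16 core genes 4 (25.0%) were bound in each of d2 PGCLC, d6 PGCLC, E12.5 PGC and intestinal epithelium, while photoreceptor precursors had 6 (37.5%) and plasmablasts 12 (75.0%). Of the 20 regulatory genes 3 (15%), 2 (10%), 3 (15%) and 2 (10%) were bound in the first 4 of these cell types, 4 (20.0%) in photoreceptor precursors and 18 (90.0%) in plasmablasts. The regulatory shares in d6 PGCLC and intestinal epithelium were close to the background of 9.7% and 7.27%. A single gene is 6.25% of the core and 5.00% of the regulatory genes, and the 2 classes were not tested against each other. The classes follow symbols, so the regulatory genes include base-assembly chaperone genes such as Psmd10. The 4 core genes were Psma4, Psma5, Psmb1 and Psmb3 in all 4 of these cell types. With the summits of both libraries required within 200 bp of each other, 2 of 16 core genes were bound in E12.5 PGC, against 3 of 20 regulatory genes (15%). Within 5 kb of an end the E12.5 PGC counts were 4 of 16 core (25.0%) and 6 of 20 regulatory genes (30.0%), beside 12.1% of the other genes. By the 200 bp rule 8, 8, 7, 6, 10 and 31 members were bound in the 6 cell types in the order given above, beside 7.35%, 7.7%, 5.1%, 6.04%, 8.56% and 31.6% of the other genes.

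**Figure D4:**
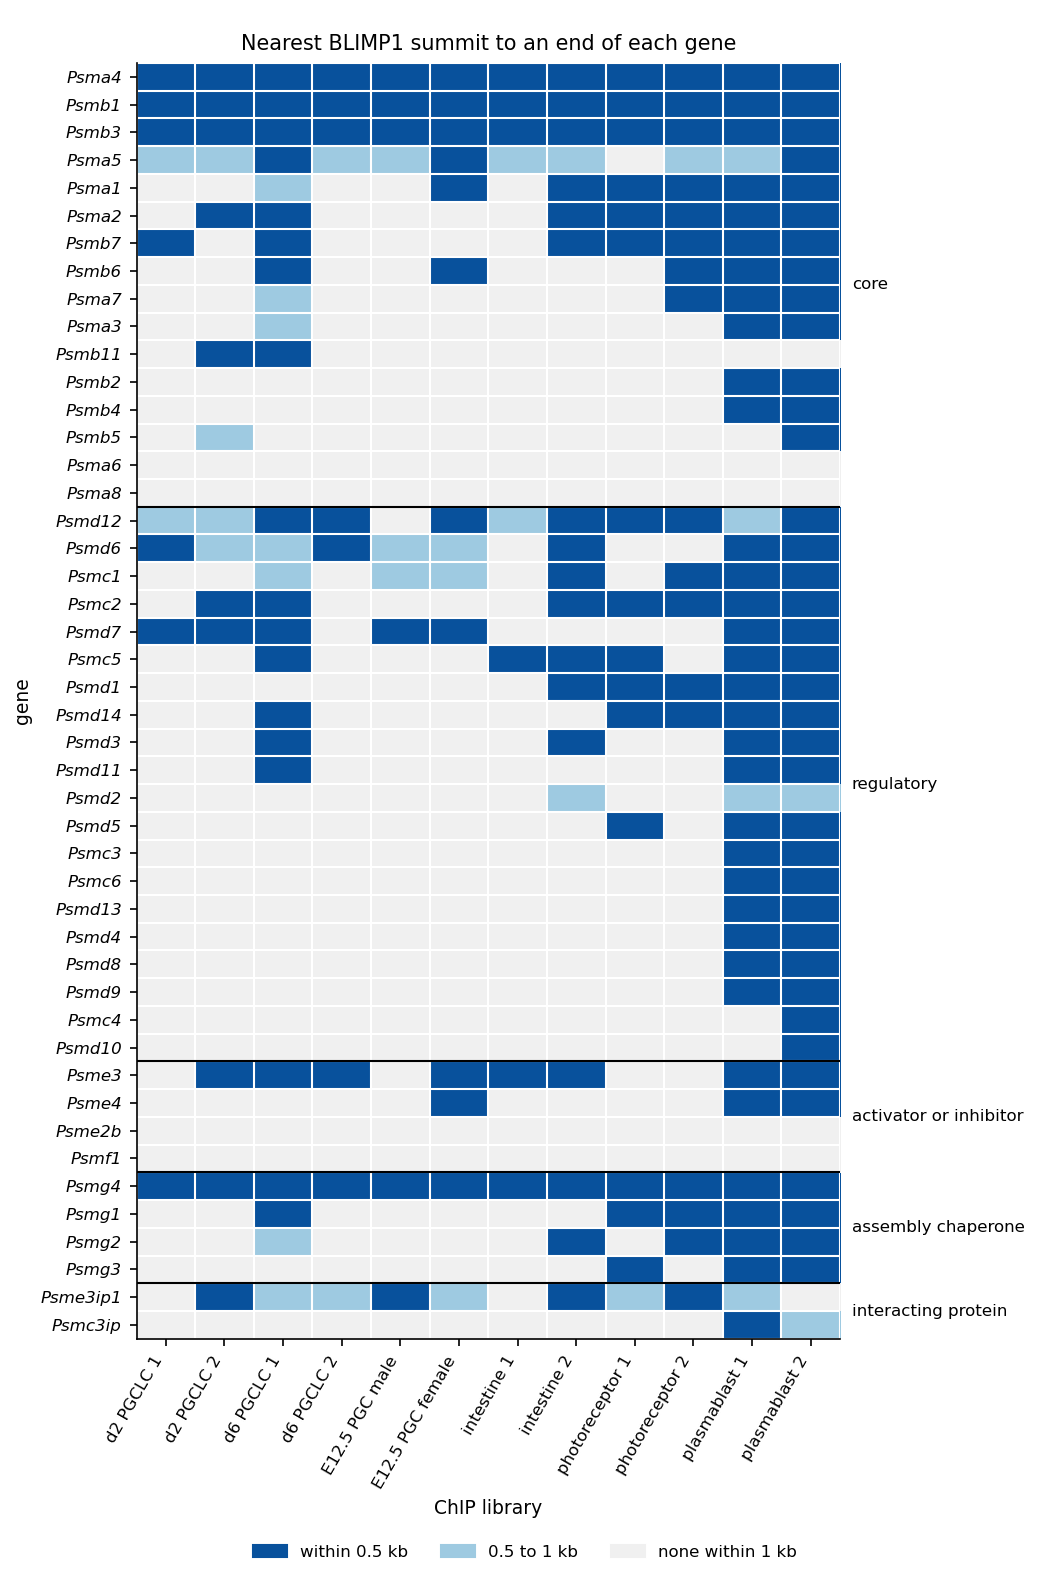
Nearest summit to an end of each member (rows, grouped by role) in each ChIP library (columns). Dark cells mark a summit within 0.5 kb and light cells 0.5 to 1 kb. The rows of Psma4, Psmb1, Psmb3 and Psmg4 are filled in all 12 libraries, and the plasmablast columns hold 38 and 40 of 46 members.

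Psmg4, which encodes an assembly chaperone of the alpha ring (chromosome 13, 34162964 to 34178172), had the narrowest span of summits among the 4 members with a summit in all 12 libraries. The nearest summit lay 30 and 44 bp after its start in the d2 PGCLC replicates, 44 and 90 bp in d6 PGCLC, and 35 and 38 bp in male and female E12.5 PGC. It lay 42 and 25 bp after the start in intestinal epithelium, 53 and 32 bp in photoreceptor precursors, and 52 and 36 bp in plasmablasts. The 12 positions spanned 65 bp, and germ-lineage and somatic libraries overlapped. The photoreceptor precursor replicates had 3 and 2 summits within 1 kb, of which only the nearest is counted. Among the 494 other genes with a summit in all 12 libraries the median span was 328.5 bp, and 29 of them (5.87%) spanned no more than Psmg4. In 11 of 12 libraries the summit lay within 50 bp of the motif letters shown above, with a median gap of 15 bp.

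Psma4, an alpha-ring subunit gene (chromosome 9, 54950781 to 54958034), had the nearest summit of all 12 libraries outside its lower-coordinate end. These lay 191 and 151 bp from it in d2 PGCLC, 178 and 168 bp in d6 PGCLC, and 221 and 134 bp in male and female E12.5 PGC. For intestinal epithelium the distances were 172 and 204 bp, for photoreceptor precursors 205 and 192 bp, and for plasmablasts 158 and 228 bp. Intestinal epithelium replicate 1 and photoreceptor precursor replicate 2 each had a second summit inside the gene, at 54951099 and 54950984. The span of the nearest summits was 94 bp, which 63 of the 494 other genes (12.8%) did not exceed. The annotated gene AY074887 (54950244 to 54950954) overlaps that end and holds the nearest summit of all 12 libraries, and Hykk ends 857 bp from it.

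Psmb3, a structural beta-ring subunit gene (chromosome 11, 97703434 to 97713500), had its nearest summit before the start in all 12 libraries. These lay at 186 and 242 bp in d2 PGCLC, 188 and 231 bp in d6 PGCLC, and 356 and 145 bp in male and female E12.5 PGC. The intestinal summits lay at 206 and 122 bp, those of photoreceptor precursors at 123 and 166 bp, and those of plasmablasts at 153 and 156 bp. The span was 234 bp, with the male E12.5 PGC library farthest out, and 9 of 12 summits lay within 50 bp of the GAAA pair shown above. Without the male library the remaining 11 summits lay between 122 and 242 bp.

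Psmb1, another structural beta-ring gene (chromosome 17, 15475721 to 15498276), had summits in all 12 libraries at its upper-coordinate end, the nearest of which spread over 500 bp. These lay 293 and 493 bp inside the gene in d2 PGCLC, 472 and 434 bp in d6 PGCLC, and 405 and 48 bp in male and female E12.5 PGC. The intestinal summits lay 484 and 386 bp inside, the photoreceptor precursor summits 378 bp inside and 7 bp outside, and the plasmablast summits 319 and 375 bp inside. Thus 10 of the 12 libraries fell between 293 and 493 bp. In E12.5 PGC and photoreceptor precursors 1 library of each pair had its summit near the end itself, and the 2 libraries were over 200 bp apart.

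Psma5, an alpha-ring gene (chromosome 3, 108256926 to 108279952), was bound in all cell types but photoreceptor precursors. Its nearest summits lay 771 and 741 bp after the start in d2 PGCLC, 26 and 569 bp in d6 PGCLC, and 702 and 112 bp in male and female E12.5 PGC. In intestinal epithelium they lay 796 and 634 bp after the start, in photoreceptor precursor replicate 2 at 694 bp, and in plasmablasts 735 bp after and 3 bp before it. These nearest summits fall into 8 libraries at 569 to 796 bp and 3 at most 112 bp from the start. Of the 3, the female E12.5 PGC library and plasmablast replicate 2 each had 2 summits within 1 kb. The other female summit lay within 200 bp of the male one, so the split does not separate the 2 sexes.

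Psmd12, a lid subunit gene (chromosome 11, 107479528 to 107498036), was bound in all cell types but E12.5 PGC. The nearest summits lay 718 and 532 bp after the start in d2 PGCLC, 189 and 128 bp in d6 PGCLC and 638 and 493 bp in intestinal epithelium. The photoreceptor precursor libraries had them 45 and 55 bp, and the plasmablast libraries 591 and 462 bp, after the start. The female E12.5 PGC library had a summit 101 bp before the start and the male library none within 1 kb. Replicates of a cell type lay within 200 bp of each other in all 5 bound cell types. The nearest summits of d6 PGCLC and photoreceptor precursors were closer to the start than those of the other 3. Each d6 PGCLC replicate and the female E12.5 PGC library had 2 summits within 1 kb, of which only the nearest is given.

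Psmd6, a further lid subunit gene (chromosome 14, 14112185 to 14120945), was bound in the 3 germ-lineage cell types and in plasmablasts. The nearest summits lay 276 and 826 bp inside its upper-coordinate end, where its transcription starts, in d2 PGCLC, 788 and 342 bp in d6 PGCLC, and 897 and 882 bp in E12.5 PGC. In plasmablasts they lay 38 bp inside and 66 bp outside, and in intestinal epithelium replicate 2 84 bp outside. The nearest summits of the 6 germ-lineage libraries were all farther inside the gene than those of the 3 somatic libraries with a summit, a pattern picked out after the values were seen. The germ-lineage libraries at 276 and 342 bp each had 2 summits within 1 kb. In each of them the other summit lay within 200 bp of that of the paired replicate.

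**Figure D5:**
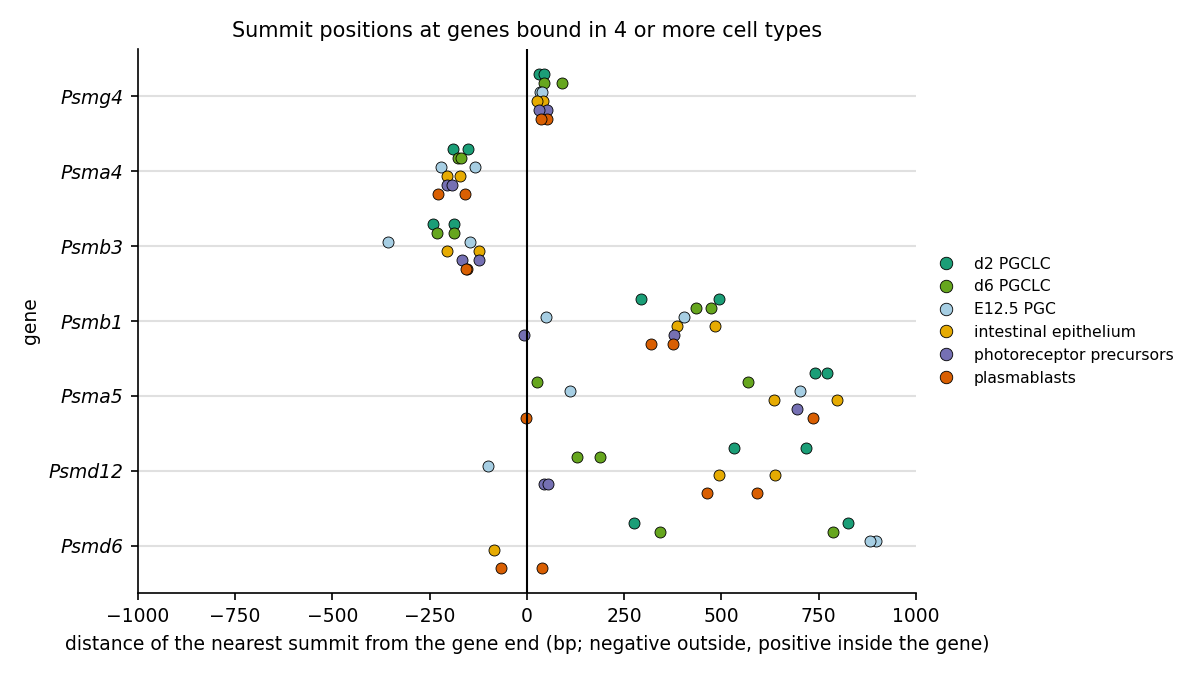
Distance of the nearest summit from the gene end that holds it (x axis, bp, negative outside the gene) for the 7 members bound in 4 or more cell types (y axis), 1 point per library, coloured by cell type. Points of Psmg4 lie within 25 to 90 bp, while those of Psma5, Psmd12 and Psmd6 spread over 799, 819 and 981 bp.

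Among the other core genes, Psma1 and Psma2 of the alpha ring were bound in photoreceptor precursors and plasmablasts, each with a summit in 7 libraries. The same held for Psmb7, which encodes the trypsin-like catalytic subunit beta2, with 7 summits inside a span of 123 bp. Psmb6, for the caspase-like beta1, was bound in plasmablasts only, with summits 83 and 33 bp outside its lower-coordinate end. Psmb5, for the chymotrypsin-like beta5 that is the target of bortezomib, was bound in no cell type. It had a summit in 2 libraries, plasmablast replicate 2 at 115 bp and d2 PGCLC replicate 2 at 857 bp. Psma3, Psma7, Psmb2 and Psmb4 were bound at a gene end in plasmablasts only. At its listed start, inside the gene, Psma3 was bound in 4 cell types. Psma8, a testis-specific alpha subunit, had no summit near an end in any library, and Psmb11, the thymus-specific beta5 form, had summits in d2 PGCLC replicate 2 and d6 PGCLC replicate 1 only.

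All 6 ATPase genes except Psmc4 were bound in plasmablasts. Psmc2 was bound in photoreceptor precursors too, Psmc5 in intestinal epithelium, and Psmc1 in E12.5 PGC, where its summits lay 833 and 867 bp from the upper-coordinate end, away from the start. Psmd7, the lid partner of the deubiquitinating subunit, was bound in d2 PGCLC, E12.5 PGC and plasmablasts, at 33 and 65, 498 and 57, and 29 and 38 bp from its upper-coordinate end. Psmd14, which encodes that deubiquitinating subunit, and Psmd1, a scaffold of the base, were bound in photoreceptor precursors and plasmablasts. Psmd2, Psmd3, Psmd4, Psmd5, Psmd8, Psmd9, Psmd11, Psmd13, Psmc3 and Psmc6 were bound in plasmablasts only. Psmc4 and Psmd10, a base-assembly chaperone gene, had a summit in plasmablast replicate 2 alone, at 224 and 371 bp from the upper-coordinate end.

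Of the activators, Psme3, the nuclear PA28-gamma, was bound in d6 PGCLC, intestinal epithelium and plasmablasts, and Psme4, known as PA200, in plasmablasts only. In d6 PGCLC replicate 2 and intestinal epithelium replicate 1 the nearest Psme3 summit lay at its upper-coordinate end, which is 103 bp from an end of Aoc2. The other intestinal replicate had its summit at the lower-coordinate end, so the intestinal replicates shared no site. At its listed start Psme3 was bound in 1 cell type, plasmablasts. Psme2b, a copy of Psme2, had no summit in any library, and short reads are hard to place between such copies. The assembly chaperone genes Psmg1 to Psmg4 were all bound in plasmablasts, and Psmg1 in photoreceptor precursors as well. Psme3ip1 was bound in d6 PGCLC, E12.5 PGC and photoreceptor precursors. The nearest Psme3ip1 summits of 9 libraries lay 105 to 1000 bp from an end, with a median of 511 bp. Those of d6 PGCLC (1000 and 996 bp) and plasmablast replicate 1 (998 bp) were at the 1 kb limit. Just outside it were plasmablast replicate 2 (1051 bp) and d2 PGCLC replicate 1 (1092 bp). An end of Rspry1 is 21 bp from the upper-coordinate end of Psme3ip1. A Psmb5 summit in d6 PGCLC replicate 1 lay at 1090 bp. Psmc3ip, a meiotic recombination factor named after its binding to an ATPase subunit, was bound in plasmablasts only.

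Summits at the members lay mostly at transcription starts. A start was listed for 38 members, not for Psma8, Psmb1, Psmb2, Psmb7, Psmc3, Psmd3, Psmd7 and Psmg2. In these 38, 171 of 180 pairs of a gene and a library with a summit near an end (95%) had one within 1 kb of a listed start, beside 89.4% of such pairs in other genes. Of the summits nearest to a start within that 1 kb, 89.4% in members and 84.1% in other genes lay within 500 bp of it, and 54.3% and 54.5% lay upstream. Pairs from 1 gene share that gene and are not independent.

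Counting at listed starts added binding that gene ends missed, because some RefSeq genes extend beyond their main start. It also removed binding away from the listed starts. Psme3, Psmc1 and Psme3ip1 were bound in 3, 2 and 3 cell types by ends and in 1, 1 and 2 by starts. Psma3, an alpha-ring gene, has its listed start at 70974623 on chromosome 12, inside the gene. It had a summit 234 to 492 bp after that start in 10 of 12 libraries and was bound there in d2 PGCLC, intestinal epithelium, photoreceptor precursors and plasmablasts. Psmf1, which encodes the inhibitor PI31, had summits 29 and 21 bp before its start in photoreceptor precursors and 2 bp after and 70 bp before it in plasmablasts. Psmc2 has 2 listed starts, and at the second, 21786747 on chromosome 5, male and female E12.5 PGC had summits 48 and 15 bp before it. Its intestinal replicates had their nearest summits at different starts, 201 bp before the second and 395 bp before the first, and the counts at starts take both. Psma6, a further alpha-ring gene, had summits 195 and 95 bp before its second listed start in plasmablasts. At starts, d2 PGCLC had 7 of 38 members bound (18.4%, beside 8.08% of the other genes), d6 PGCLC had 6 (15.8%, beside 9.37%) and E12.5 PGC had 7 (18.4%, beside 5.81%). Intestinal epithelium had 8 bound at starts (21.1%, beside 7.51%), photoreceptor precursors 13 (34.2%, beside 10.3%) and plasmablasts 32 (84.2%, beside 41.8%). Within 0.5 kb of a start the members bound numbered 4, 4, 5, 6, 13 and 29 in the same order of cell types, beside 5.53%, 6.28%, 4.2%, 5.52%, 8.27% and 35.4% of the other genes.

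The members' promoters were rich in CpG. The median ratio of observed to expected CpG was 0.78 over 41 windows of members and 0.57 over 21222 windows of other genes, and the median GC content was 57.3% and 56.3%. A ratio of at least 0.6 was found in 32 member windows (78.0%) and 47.6% of the others. By the first window of each gene, 29 members had such a promoter. Of these, d2 PGCLC had 6 bound (20.7%, beside 12.1% of the other genes with such promoters) and d6 PGCLC had 7 (24.1%, beside 14.2%). For E12.5 PGC the count was 6 (20.7%, beside 8.68%) and for intestinal epithelium 7 (24.1%, beside 11.8%). In photoreceptor precursors 10 of the 29 were bound (34.5%, beside 15.5%) and in plasmablasts 26 (89.7%, beside 65.5%). In plasmablasts the members' share was thus 1.37 times that of CpG-rich genes and 2.03 times that of all other genes.

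Motif letters were searched on both strands of the windows. AGTGAAAG and the longer form capitalised in Psmg4 were each found in 1 of 41 member windows, that of Psmg4, and in 1.30% and 0.113% of all 21263 windows of protein-coding genes. Matches to the shorter motif and to the GAAA pair include those of the longer form. Of the other genes, 10 of 22 with the longer form (45.5%), 32 of 266 with AGTGAAAG (12.0%) and 38 of 685 with the GAAA pair (5.55%) were bound in all 6 cell types, beside 2.26% of all other genes. The GAAA pair was found in 4 member windows (9.76%), of Psmg4, Psmb3, Psmd4 and Psmd9, and in 3.35% of all windows. The exact letters of the Psmb3 match, searched on both strands after the windows of Psmg4 and Psmb3 had been read, were found in those 2 member windows and in 0.310% of all. Among motifs of other factors, CCGGAAG (ETS factors) was found in 17 member windows (41.5%, beside 11.6% of all), TGANNNNGC (the antioxidant response element, bound by NFE2L1) in 23 (56.1%, beside 41.7%), and GGGCGG (SP1) in 21 (51.2%, beside 46.2%). CCAAT (NF-Y) was found in 15 (36.6%, beside 38.2%), the NRF1 motif in 2 (4.88%, beside 1.33%) and AAGATGGCG (YY1) in 2 (4.88%, beside 1.83%). The ETS, SP1, NRF1 and YY1 letters contain CG, and the members' windows were rich in CpG. Motif shares were not set beside CpG-rich windows alone, and the part of CpG content was not tested. A match describes letters and not a bound site.

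Another protein-coding gene ended within 1 kb of an end of 17 members (37.0%), beside 24.8% of the other genes. For 12 of the 38 members bound in at least 1 cell type, a bound end itself had such a neighbour, so that the summit can belong to either gene. Examples are Psma2 with Mrpl32 at 205 bp, Psmc2 with Dnajc2 at 11 bp, Psma7 with Ss18l1 at 19 bp, Psmd13 with Sirt3 at 85 bp and Psmc5 with Ftsj3 at 101 bp. Of the 4 members bound in all cell types, Psmb1 and Psmg4 had no such neighbour at the bound end, and that of Psmb3, Pcgf2, lay at 1000 bp. Without the interacting-protein genes and the members near another gene end, intestinal epithelium had 3 of 29 members bound (10.3%, against 17.4% with them).

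The inducible subunits left out of the set were bound more widely than the catalytic subunits they replace. Of these 5 genes all were bound in d2 PGCLC, d6 PGCLC and plasmablasts, beside 8.39%, 9.7% and 39.6% of the genes outside the set. In E12.5 PGC and photoreceptor precursors 4 were bound (beside 5.76% and 9.64%), and in intestinal epithelium 3 (beside 7.27%). Psmb10, Psmb9 and Psmb8 encode beta2i, beta1i and beta5i and were bound in 6, 6 and 4 cell types. Their constitutive counterparts Psmb7, Psmb6 and Psmb5 were bound in 2, 1 and 0. Psmb10 had a summit 254 to 305 bp inside an end in all 12 libraries, a span of 51 bp. The activator gene pair Psme1 and Psme2 was bound in 4 and 6 cell types, and Psme3 in 3. At listed starts Psme1 and Psme2 were again bound in 4 and 6, and Psme3 in 1.

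Other genes of the ubiquitin and proteasome pathway were taken from a list of 31, of which 30 matched and Paaf1 did not. In plasmablasts 27 of them were bound (90.0%, beside 39.6% of the other genes as above). Photoreceptor precursors and intestinal epithelium had 7 each (23.3%, beside 9.64% and 7.27%), and d6 PGCLC had 4 (13.3%, beside 9.7%). With 2 each (6.67%), d2 PGCLC was below its background of 8.39% and E12.5 PGC close to its background of 5.76%. Ube3c, a ubiquitin ligase that acts at the proteasome, was bound in all 6 cell types. Uchl5, a deubiquitinase of the regulatory particle, was bound in 4. Nfe2l2, Faf1, Ubqln4 and Rps27a were bound in 3 each. Nfe2l1, the transcription factor that raises proteasome genes when the proteasome is inhibited, was bound in plasmablasts only. So were Adrm1, a ubiquitin receptor of the regulatory particle, and Pomp, a chaperone of core assembly.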

How the data were processed

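BLIMP1 ChIP-seq summit lists of 12 libraries were analysed. An input library of male E12.5 PGC was left out. MACS2 2.1, Bowtie 1.1.2, cutadapt 1.7.1 and Trim Galore 0.3.7 are the tools named, with mm10, per the submitters' processing notes. The deposited lists hold 1 position in bp per summit, called per library, with no score. The calling threshold, the control and the number of reads are not given in the sources used here. Neither is the base from which positions are counted, so distances may be off by 1 bp.

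Gene ends came from a RefSeq table and starts from RefSeq promoter windows, both of GRCm38.p6. Bound means a summit within 1 kb of either end in both libraries of a cell type, with the 2 sexes taken as a pair in E12.5 PGC. Counting (Python 3.11.15, numpy 2.4.6) was tested on simulated summits. Members and lists were chosen with earlier results of these data known, so the shares have no test. Full values were given for members bound in 4 or more cell types, and names for members bound outside plasmablasts, not bound in plasmablasts or without a summit. The neighbouring genes, the Psmd6 pattern, the Psmf1 window, the letters of the Psmb3 match and the background of other genes at listed starts were picked after values were seen. Alternatives were other windows, starts, either library, summits within 200 bp, other backgrounds and leaving out each library.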

Additional observations from a re-analysis of the deposited data

How the results depend on the processing

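Values are percent of genes bound, and a change of over 1.5 times is given. Of 151 alternative values 109 stayed within that. This rule compares percents and not ratios to the other genes, which can change more. In d6 PGCLC 23.9% of members were bound within 5 kb, beside 19.2% of the other genes. That ratio of 1.25 was the lowest of the 6 cell types in this window, against 2.02 in d6 PGCLC within 1 kb. Within 0.5 kb members fell to 10.9% in both d2 PGCLC and E12.5 PGC, beside 5.29% and 3.80% of the other genes. Regulatory genes fell to 5.00% (1 of 20) in each of d2 PGCLC, d6 PGCLC, E12.5 PGC and intestinal epithelium. The other genes stood at 5.29%, 5.89%, 3.80% and 5.05%, so the regulatory share was below the background in all of these but E12.5 PGC. Within 5 kb members reached 30.4% in d2 PGCLC, and regulatory genes 25.0% in d2 PGCLC, 30.0% in E12.5 PGC and 25.0% in intestinal epithelium, beside 17.8%, 12.1% and 12.9% of the other genes in these 3 cell types. With a summit in either library, which is wider by construction, members reached 32.6%, 54.3%, 30.4%, 41.3% and 45.7% in d2 PGCLC, d6 PGCLC, E12.5 PGC, intestinal epithelium and photoreceptor precursors, beside 18.2%, 36.6%, 13.4%, 19.1% and 17.0% of the other genes, and the d6 PGCLC ratio to them was 1.48. Core genes then reached 50.0%, 68.75% and 43.75% in d2 PGCLC, d6 PGCLC and intestinal epithelium, and regulatory genes 45%, 40.0% and 35.0% in d6 PGCLC, intestinal epithelium and photoreceptor precursors. With summits within 200 bp, core genes fell to 13% (2 of 16) in E12.5 PGC, beside 5.10% of the other genes. Regulatory genes fell to 5.00% in intestinal epithelium by the same rule, beside 6.04%. In E12.5 PGC this rule and the 5 kb window turned the order of core and regulatory shares. At listed starts regulatory genes reached 17.6% in intestinal epithelium, beside 7.51% of the other genes. Without interacting proteins and members near another gene end, 3 of 29 members (10.3%) were bound in intestinal epithelium. The cause of these changes was not tested.

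With 1 library left out, the other alone defined its cell type, which is wider by construction. Members then ranged from 19.6% to 30.4% in d2 PGCLC (the high value without replicate 1), 19.6% to 54.3% in d6 PGCLC (high without replicate 2), 19.6% to 30.4% in E12.5 PGC (high without the male library), 17.4% to 41.3% in intestinal epithelium (high without replicate 1), 34.8% to 39.1% in photoreceptor precursors and 82.6% to 87.0% in plasmablasts. With the same libraries left out at the high end, core genes ranged from 31.25% to 43.75% in d2 PGCLC, 25.0% to 68.75% in d6 PGCLC and 25.0% to 43.75% in intestinal epithelium, and regulatory genes from 10.0% to 45% in d6 PGCLC and 10.0% to 40.0% in intestinal epithelium. The background of other genes with a CpG ratio of at least 0.6 (or 0.75) was 65.5% (69.4%) for plasmablasts, 15.5% (16.4%) for photoreceptor precursors, 11.8% (12.498%) for intestinal epithelium and 8.68% (8.66%) for E12.5 PGC. Of the 21 members with a CpG ratio of at least 0.75, 18 (85.7%) were bound in plasmablasts. Relative to other genes with such promoters, the members' share ranged from 1.24 times in plasmablasts to 2.75 times in E12.5 PGC. In d6 PGCLC it was 1.31 times. No paired analysis was possible because the counts come from no test and the E12.5 PGC libraries carry no replicate number. Without scores or read depth, a missing summit does not show absent binding.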
